A study of Mus musculus with 8 samples.

Results

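Peaks of N6-methyladenosine (m6A) were called in mouse embryonic stem cells, and 149 of the 25815 control peaks (0.577%) were unusually wide stretches lying in 1 exonic block. These 149 peaks were chosen from the control peak table alone, by 2 measured values: a block count of 1 and an exonic width of 1000 nt or more. They made up 0.981% of the 15185 control peaks with a single block. The peaks carried 144 Ensembl identifiers, and 146 of them could be placed in 139 genes with a symbol.

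The cells carried a doxycycline (Dox)-inducible knockdown of Setd2, the enzyme that adds the third methyl group to lysine 36 of histone H3. They grew feeder-free as spheres in 2i medium, with 1 µM of the MEK inhibitor PD0325901, 3 µM of the GSK3 inhibitor CHIR99021 and 1000 U/ml of the cytokine LIF. The control cells received no Dox and the others 1 µg/ml for 4 days. From each condition, input RNA and the RNA precipitated by an antibody to m6A (IP) were sequenced, with 2 replicates in each of the 4 groups. All groups carried the knockdown construct and 2i with LIF, so the effect of Dox itself and that of the knockdown cannot be told apart. Each condition had 1 peak table in which both replicates and their inputs were pooled. No library had values of its own here, so no spread between replicates can be given, no test between conditions was made, and the sequencing depth is unknown. The fold enrichment and log10 p of a peak are the authors' own values for that peak. Setd2 itself had 10 control and 6 Dox peaks, none of them among the 149, and peak number does not measure its knockdown. All 8 markers of naive mouse embryonic stem cells that were listed had a control peak, against 3 of 8 fibroblast markers (Col1a1, Vim and Fn1). These counts of genes with a peak do not measure the expression of the markers.

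The m6A mark is placed on messenger RNA by a nuclear complex of the METTL3 and METTL14 proteins with adaptors that include RBM15 and RBM15B. It is known to gather in long internal exons and near stop codons, mostly at adenosines in the sequence GGAC and its relatives. Antibody peaks are far wider than the modified base, since each pulled-down fragment extends to its sides, and neighbouring sites can merge into 1 peak. A peak in 1 block lies in 1 uninterrupted stretch of annotated exon, so a peak of this kind can only be called where such a stretch is at least as long.

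Of the 149 peaks, 9 began at the exact first base of their RefSeq gene interval. The starts of 5 of them are shown because the peak edge there coincides with the annotated edge of the gene. In each sequence the capitals mark the first 30 nt of the control peak and the lower case the 30 nt before it, in GRCm38.p6, the assembly of mm10.
Foxd3, chr4:99656269-99656328, + strand: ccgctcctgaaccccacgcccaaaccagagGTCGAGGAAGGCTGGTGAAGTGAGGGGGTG
Irf2bpl, chr12:86884785-86884844, - strand: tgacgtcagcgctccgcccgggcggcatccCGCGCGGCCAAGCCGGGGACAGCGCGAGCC
Rpp25, chr9:57504072-57504131, + strand: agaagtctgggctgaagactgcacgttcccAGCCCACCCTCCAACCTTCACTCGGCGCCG
Tbcc, chr17:46890591-46890650, + strand: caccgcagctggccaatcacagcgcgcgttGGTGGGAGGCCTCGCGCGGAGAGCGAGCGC
Exoc8, chr8:124897676-124897735, - strand: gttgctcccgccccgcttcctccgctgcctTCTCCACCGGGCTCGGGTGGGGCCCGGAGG
Foxd3 encodes a forkhead transcription factor of pluripotent cells, Irf2bpl a nuclear protein of the IRF2-binding family, Rpp25 a subunit of RNase P and RNase MRP, Tbcc a tubulin folding cofactor, and Exoc8 a subunit of the exocyst. The motif GGAC on the transcribed strand occurs in the capitals of Irf2bpl (1 match) and not in those of the other 4. The other starts of this kind were those of Hspa1a, Rbmxl2, Zfp830 and Slc39a7.

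A second set is shown because the Dox table covered its parts unequally. The Tlcd1 peak (chr11:78178038-78179058, + strand, 1021 nt, fold 40) held both an internal start of Tlcd1, a gene for a membrane protein of the TLC family, and the complete 61-nt hairpin of Mir7653. In the 300-base window around that start, 250 before and 50 after it, the capitals mark GGAC.
Tlcd1 internal start, chr11:78178408-78178707, + strand: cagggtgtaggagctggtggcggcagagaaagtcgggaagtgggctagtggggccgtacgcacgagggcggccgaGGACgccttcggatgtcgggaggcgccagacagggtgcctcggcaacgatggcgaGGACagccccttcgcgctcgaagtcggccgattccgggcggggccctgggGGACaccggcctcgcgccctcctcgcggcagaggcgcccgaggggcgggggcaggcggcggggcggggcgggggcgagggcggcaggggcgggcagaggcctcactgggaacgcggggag
In the mature microRNAs, RNA letters as in RefSeq, the capitals mark the seed, bases 2 to 8.
mmu-miR-7653-5p, chr11:78178827-78178848: uAAGGGGCggacagacagacgg
mmu-miR-7653-3p, chr11:78178866-78178887: cCCCUACUguuccaccccgccu
The 300 bases held 3 matches to GGAC, and only 10 of the 300 lay under a Dox peak. The other window that lay whole inside one of the 149 peaks held 0 matches, with all 300 nt under a Dox peak. The hairpin began 789 nt from the 5′ edge of the Tlcd1 control peak and all of its 61 nt were covered in Dox. Its mature 5p sequence held 1 match to GGAC. Under its own identifier the hairpin was a 61-nt peak with exactly its annotated bounds in both tables, with a fold of 17.6 in control and 3.71 in Dox. Reads of the hairpin and of Tlcd1 cannot be told apart there. Across all 32851 promoter windows of the RefSeq table, 65.6% held GGAC on their own strand and 87.7% on either strand. Windows of that table reached into 22 of the 149 peaks, over 2553 nt, and GGAC occurred there 12 times on the strand of the peak, or 4.70 per 1000 nt. The rate over all windows was 3.82 per 1000 nt, at a GC content of 53.8% against 67.4% in the stretches inside the peaks. These counts describe the letters only, and the rest of the 149 sequences was not read here.

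The median width of the 149 peaks was 1257 nt (interquartile range 1102 to 1440), and 62 of them were under 1200 nt. Only the upper end was long: 32 peaks reached 1500 nt and 8 reached 2000 nt. The widest was that of Ankrd11 (chr8:122891782-122896130, - strand), which encodes a large chromatin-associated ankyrin repeat protein, with 4349 nt, a fold of 16.5 and a log10 p of -865. Next came a 3287-nt peak in Ahnak2, a giant scaffold-like protein with internal repeats, and a 2489-nt peak in Nes, the intermediate filament nestin of progenitor cells. Epop, a Polycomb-associated protein of stem cells, had a peak of 2314 nt. Exoc8 followed with 2249 nt, Spen, an RNA-binding transcriptional repressor, with 2159 nt, and Hspa1a, an inducible HSP70 chaperone, with 2128 nt. Cenpb, the centromere protein that binds satellite DNA, reached 2069 nt. At the lower limit the narrowest peaks were those of Zfp623 (1009 nt), the zinc transporter gene Slc39a7 (1014 nt) and, tied at 1017 nt, Golga4 and Ccdc8. Just outside it stood Clip1 (991 nt), Cbx2 (990 nt) and, at 989 nt, Urgcp and 8 further peaks.

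Enrichment, as the authors' values describe it, stood above that of the whole control table. The median fold was 12.1 (interquartile range 9.14 to 18.8, from 3.10 to 60.3), against 4.62 over all control peaks, and the median log10 p was -133 against -9.68. The 357 control peaks of at least 1000 nt in several blocks had medians of 12.6 and -212, so the high values were shared by wide peaks of both kinds. All 149 were in the authors' shorter control list, whose limits are a p of 1e-05 and a fold of 2. The lowest log10 p belonged to Nup62, a nuclear pore protein, at -2140, Akap12, a protein kinase A anchor, at -1860, and Son, a splicing cofactor, at -1650. Epop stood at -1310, Hnrnpa0, an RNA-binding protein, at -1250 and Dido1 at -1080. Irf2bpl, Sox2, the ribosome assembly factor gene Rrs1 and Ankrd11 had values from -913 to -865. Epop also had one of the 10 highest folds (45.5). Tchh, the hair follicle protein trichohyalin, had the highest fold (60.3) with a log10 p of only -15.7. The Ahnak2 peaks came to 55.4, 48.0, 46.7 and 34.4 at a log10 p between -14.3 and -11.9. Of the 10 highest folds, 8 were whole multiples of 1.23 within rounding, as were 77.3% of the folds of 2628 weaker control peaks, so such folds took stepped values. Other step sizes tried matched a median of 4.76% of the weaker folds. Of all 149 wide peaks, 30 had a fold on a whole multiple of 1.23.

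By role, zinc finger genes were listed by name alone, as symbols that start with Zfp, Zbtb, Zscan, Zkscan, Zik or Zxd. Of the 285 such genes with a control peak, 13 held a wide one, all of them Zfp or Zbtb genes. Zinc finger genes of other names, such as Zic2 and Rest, are not counted there. The 13 ranged from 1009 nt (Zfp623) to 1884 nt (Zfp568) and from a fold of 6.89 (Zfp687) to 50.6 (Zfp865). Zinc finger genes have close copies, so their values are uncertain where reads could be split among them. Of 58 listed chromatin regulators, all with a control peak, 5 had a wide one, among them Arid1a (1679 nt) and Arid1b (1051 nt), DNA-binding subunits of the BAF remodelling complex, the H3K4 methyltransferase gene Kmt2d (1471 nt) and Tet3 (1050 nt), which oxidises 5-methylcytosine. Of 22 genes of the m6A machinery with a control peak, 2 had a wide one, the adaptors Rbm15b (1912 nt, fold 9.14) and Rbm15 (1019 nt, fold 6.15). Of 31 listed pluripotency genes with a control peak, Sox2, a transcription factor of naive cells, had a wide one (1312 nt, fold 8.61). Foxd3, which that list does not hold, had one of 1162 nt at a fold of 21.8. None of 20 genes of 2i and LIF signalling with a control peak had one. For comparison, 139 of 9994 named genes with a control peak (1.39%) held at least 1 wide peak, and these lists are not of matched exon length.

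Several genes held more than 1 of the peaks. Ahnak2 had 4, and Irf2bpl and Ahnak, a giant scaffold protein related to Ahnak2, had 2 each. The 2 peaks listed for Pakap and the 2 for Srcap, a chromatin remodeller gene, were instead the same stretch under 2 identifiers, sharing 1465 nt and 1079 nt. Another 2 pairs lay on opposite strands. The Hic2 peak shared 1854 nt with a peak of an identifier without a symbol, both at fold 11.6, and the Fen1 peak shared 1102 nt in the same way, both at fold 11.8. A control peak on the opposite strand overlapped 17 of the 149 peaks (11.4%, 95% interval 6.79 to 17.6), against 111 of 1052 single-block control peaks of 500 to 999 nt (10.6%, 8.76 to 12.6). In 11 of the 17, the folds on both strands differed by at most 10%. The library kit kept the strand, per the labels, but no source used here says whether peak calling used it, so overlapping genes on opposite strands cannot be told apart at these places. Hspa1a and Hspa1b, which are near-identical genes and both had a wide peak, cannot be told apart for a similar reason.

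Along the genes, most of these peaks were centred between the ends, which their width fixes in part. RefSeq gene intervals include introns, and only intervals of at least 3000 nt were used to place peaks by their centre. Of 123 peaks in such genes, 57 were centred in the last 20% of the interval and 14 in the first 20%. Other control classes leaned the same way. The ninth and last 10% held 22% and 24.4% of the wide peaks, against 16.1% and 36% at 500 to 999 nt. They held 12.1% and 38% of those under 500 nt, and 22.9% and 20% of wide peaks in several blocks. Within 1000 nt of the 3′ end lay the centres of 5 of the 123 (4.07%, 95% interval 1.33 to 9.23), among them those of Cd3eap, Ogfr, Htatsf1 and Zfp707. The share was 15.8% (13.5 to 18.3) for the 906 single-block control peaks of 500 to 999 nt and 19.4% (18.7 to 20.1) for the 11792 under 500 nt. It was 4.71% (2.71 to 7.53) for the 340 control peaks of several blocks and at least 1000 nt. No centre lay less than 500 nt from the 5′ end, the nearest being that of Sfswap at 500 nt, but a centre of so wide a peak can come that near to either end only where the peak runs past it. The rule on width therefore sets a part of these differences in centres. Measured from the edges instead, 16 of the 123 (13.0%, 7.62 to 20.3) ended less than 1000 nt from the 3′ end. This share was 22.3% (19.6 to 25.1) for peaks of 500 to 999 nt, 21.0% (20.3 to 21.8) for those under 500 nt and 25.9% (21.3 to 30.9) for the wide peaks of several blocks. At the other end, 13 (10.6%, 5.75 to 17.4) began less than 500 nt from the 5′ end, against 11.7% (9.68 to 14.0), 14.7% (14.0 to 15.3) and 20% (15.9 to 24.7) in the same classes. Of 219 wide single-block Dox peaks in such genes, 28.3% (22.4 to 34.8) ended that near to the 3′ end. At the 5′ end the Dox share was 4.57% (2.21 to 8.24). Sfswap, a splicing regulator, and Hexim1, an inhibitor of P-TEFb, began 10 and 64 nt before their intervals.

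**Figure D1:**
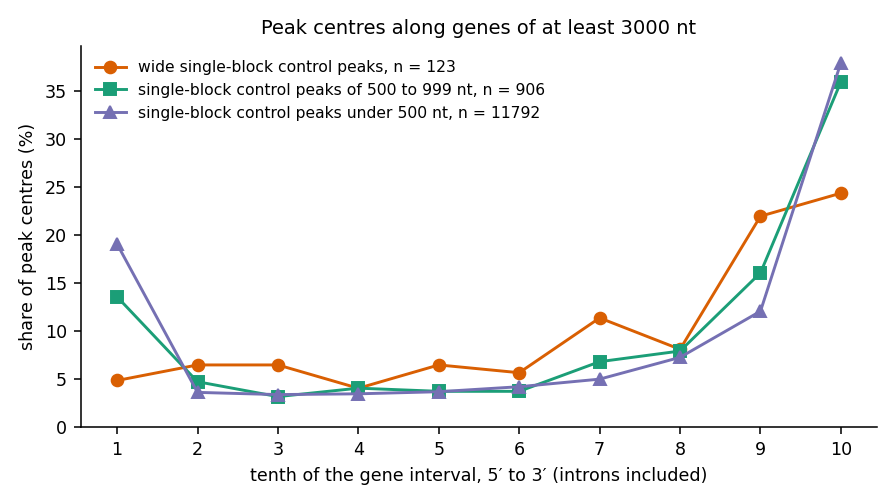
Share of peak centres (%) in each 10% of the gene interval, 5′ to 3′ with introns included, for genes of at least 3000 nt. Lines stand for 123 wide single-block control peaks, 906 of 500 to 999 nt and 11792 under 500 nt. The wide peaks put 22% in the ninth and 24.4% in the last of them, where the 500 to 999 nt peaks put 16.1% and 36%, and 4.88% in the first, against 13.6% and 19.1% for the narrower classes.

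Short genes were frequent among the hosts. Of the 146 named peaks, 23 (15.8%, 95% interval 10.3 to 22.7) lay in intervals under 3000 nt, against 63 of 969 (6.50%, 5.03 to 8.24) for single-block control peaks of 500 to 999 nt and 10 of 350 (2.86%, 1.38 to 5.19) for wide peaks of several blocks. For named Dox peaks found by the same rule on blocks and width it was 23 of 242 (9.5%, 6.12 to 13.9), and this interval overlaps the first. In these short genes the wide control peak took up a median of 72.9% of the gene (from 36.4% in Sp5 to 99.3%). Epop was covered nearly from end to end (99.3%). Exosc6, a subunit of the RNA exosome, followed with 94.9%, Rbmxl2, an RNA-binding protein, with 94.0% and Rpp25 with 91.1%. Sfn, which encodes 14-3-3 sigma, had 88.9% of its interval in a peak that ended at its last base, and the immediate early gene Ier2 had 86.3%. The Exosc6 peak is listed under the identifier of its neighbour Aars in the deposited table and was named by its place. In all, 20 of the named peaks covered 50% or more of their gene.

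The Dox table had a peak at every one of these sites. All 149 (100%, 95% interval 97.6 to 100) met a Dox peak over at least 1 exonic nt of the same strand. The share was 80.7% over all control peaks, 76.8% over single-block ones and 98.8% (97.9 to 99.3) over the 1052 of 500 to 999 nt, and a wide peak has more nt that can be met. Control peaks of at least 1000 nt in several blocks also met a Dox peak in 357 of 357 cases (99.0 to 100), with 95.2% of their nt covered. Dox peaks covered 189459 of the 203564 nt (93.1%). Exactly 76 peaks (51.0%, 42.7 to 59.3) had every nt under a Dox peak and 114 (76.5%, 68.9 to 83.1) had 90% or more, while 11 had under 70%. The peaks of 500 to 999 nt had 90.7% of their nt covered, and 57.7% (54.6 to 60.7) of them were covered in full.

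How a single Dox peak matched the control peak varied. In 73 cases the control peak lay inside a larger Dox peak, and in 3, Itpkc, the neuronal repressor gene Rest and Htatsf1, a Dox peak had the same bounds. One Dox peak covered only a part in 38 cases, and in the remaining 35 several Dox peaks lay over it, none over all of it. Among the peaks with the lowest log10 p, Akap12 lay inside a Dox peak of 5557 nt in 4 blocks, and Son inside one of 2278 nt. Dido1 lay inside one of 3058 nt. Hnrnpa0 instead lay over 2 Dox peaks with a gap of 58 nt, and 85.1% of it was covered. Spen, at 2159 nt, lay inside a Dox peak of 3658 nt. Epop kept 2255 of its 2314 nt and Sox2 1282 of 1312 nt, each with a bare stretch only at the 5′ edge (59 and 30 nt). The main Dox peak, the one sharing most nt, was wider than the control peak in 84 of 149 cases. Its fold was lower than the control fold in 135 and higher in 14, with a median of 7.05. These folds come from 2 separately called lists (median 4.62 over all control and 3.51 over all Dox peaks) whose scaling no source used here gives, and the sites were chosen in control. Lower and higher folds were not counted over other control peaks, so the count cannot be called particular to the wide ones. Sfn (12.8 in control, 21.7 in Dox), Rbm15b (9.14 and 13.0) and Tet3 (20.9 and 27.1) were among the 14. In these named peaks the log10 p was weaker in Dox (-246 against -540, -165 against -192 and -7.13 against -16.8). In most of the 14, however, the log10 p was stronger in Dox. Examples are Zfp687 (-147 against -91.5) and both Pakap entries (-142 against -75.0 and -67.9).

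Several Dox peaks lay over 41 of the 149 (27.5%, 20.5 to 35.4). Over all control peaks that share was 4.93%, over single-block ones 4.21%, and over those of 500 to 999 nt 14.6% (12.6 to 16.9). It was 19.6% (15.6 to 24.1) over 357 control peaks of at least 1000 nt in several blocks. Overlapping identifiers add to the count, since the same Dox stretch can be listed under each. In 7 of the 41 the Dox peaks left no gap, among them both Pakap and both Srcap entries, Rbm15b, Itpkc and Slc39a7, and all 7 shared nt with another control peak on the same strand. A gap between Dox-covered stretches, which such double listing cannot make, was present in 34 of 149 (22.8%, 16.3 to 30.4). It was present in 1.53% of single-block control peaks and in 9.41% (7.71 to 11.3) of those of 500 to 999 nt. The largest gap per peak had a median of 119 nt and ran from 58 to 387 nt. Without the 23 peaks that share nt with another control peak, 25 of 126 lay over several Dox peaks.

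**Figure D2:**
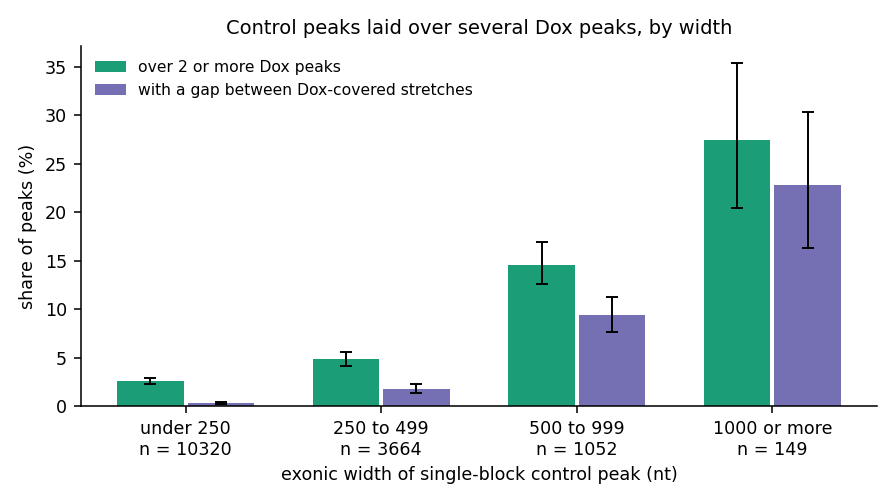
Share of single-block control peaks (%) over 2 or more Dox peaks and share with a gap between Dox-covered stretches, by exonic width in nt; bars are shares, whiskers exact 95% binomial intervals, and n is the number of peaks. Both shares were highest at 1000 nt or more, 27.5% and 22.8%, and lowest under 250 nt, 2.58% and 0.329%.

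Ahnak2 showed the most pieces. Its 3287-nt peak (chr12:112777695-112780981, - strand) met 7 Dox peaks of 91 to 569 nt with folds from 3.47 to 28.2, and 76.5% of its length was covered. The other 3 met 5, 4 and 4 Dox peaks and were covered over 66.9%, 81.7% and 79.2%. The identifier had 10 control and 25 Dox peaks in all. Repeats within the gene make read placement uncertain there, and their part in the pieces was not tested. Apart from Ahnak2, 4 peaks met 3 Dox peaks, among them Hspa1a, Zic2, a zinc finger transcription factor of neural patterning, and Tlcd1, where 1 of the 3 was the hairpin. The Zic2 peak (1141 nt) was covered over 66.0% by Dox peaks of 151, 181 and 571 nt, the last sharing 421 nt with it.

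**Figure D3:**
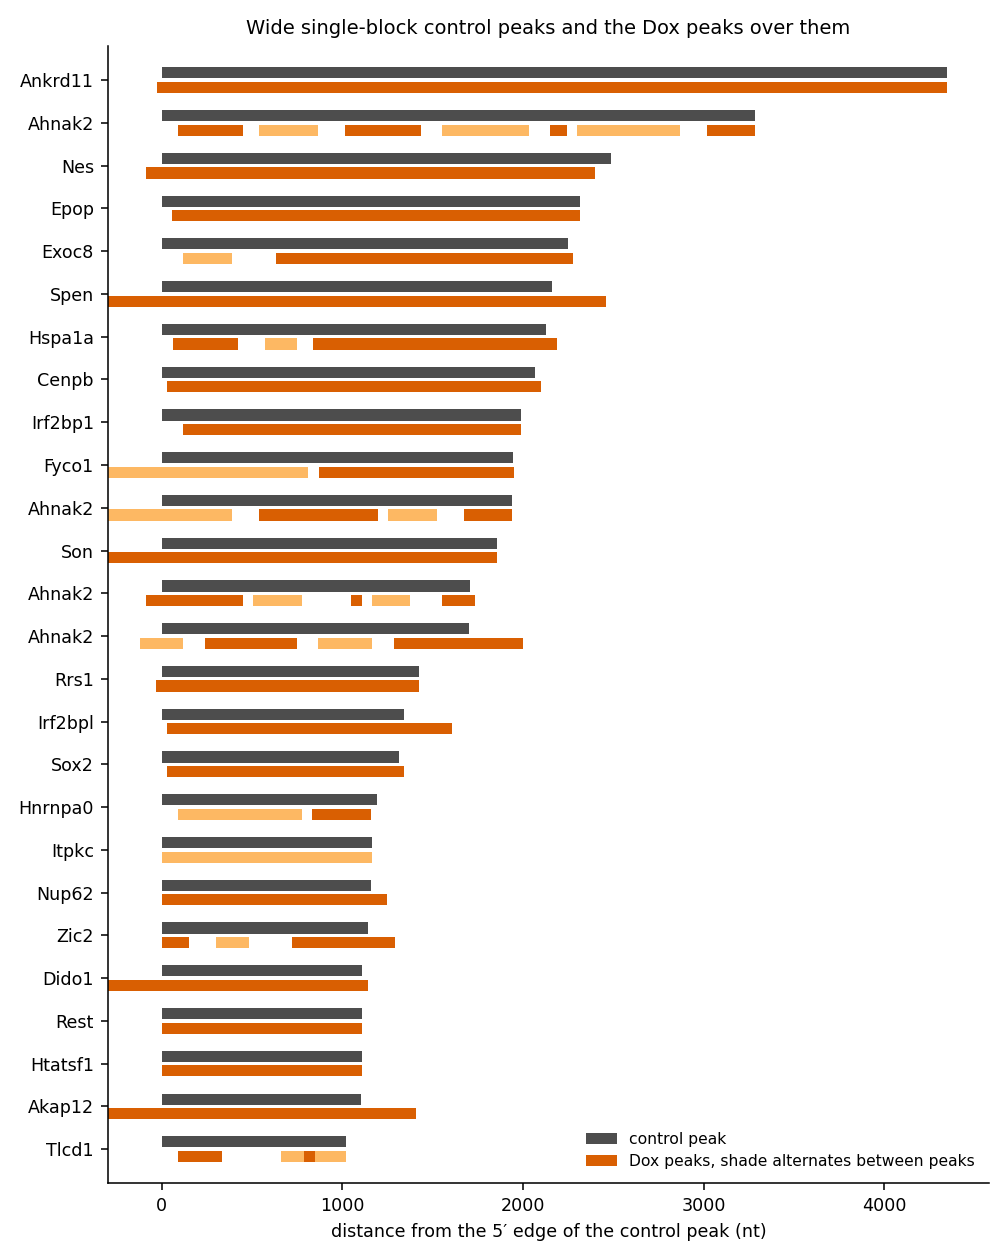
Control peaks (grey) and the Dox peaks over them (orange, shade alternating from peak to peak, drawn to at most 300 nt beyond the control peak), by distance in nt from the 5′ edge of the control peak. The peaks drawn were taken from the widest, those over most Dox peaks, those of lowest log10 p and those with the same bounds in Dox; Ahnak2 breaks into 4 to 7 pieces, while Ankrd11 lies under 1 Dox peak over all 4349 nt.

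Little of a few peaks was covered. Tchh kept 300 of 1523 nt (19.7%), as 2 Dox peaks of 150 nt with folds of 5.97 and 16.3 and log10 p of -2.41 and -3.84. A peak without a symbol, inside the interval of the Wnt inhibitor gene Notum where identifiers of both strands had peaks, kept 599 of 1345 nt (44.5%). Exosc6, despite a log10 p of -709, kept 749 of 1258 nt (59.5%) in 1 Dox peak and lost 509 nt at its 5′ edge. Mocs3, a molybdenum cofactor enzyme, kept 58.7%, Tlcd1 59.0% and Jun, a subunit of AP-1, 62.4%, the last as 2 pieces 326 nt apart. Otud1, a deubiquitinase, kept 68.7% under 1 Dox peak. Among the lists, none of the 5 chromatin regulators lay over several Dox peaks and 3 were covered in full, Arid1a and Arid1b among them. Of the 13 Zfp and Zbtb genes 10 were covered in full, against 51.0% of all 149 peaks, and 2, Zfp865 and Zfp46, lay over 2 Dox peaks. Zic2, which that list does not hold, was among the peaks in pieces. Rbm15 lay over 2 Dox peaks 208 nt apart, with 79.6% covered.

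The share in pieces was described by class of p and of fold. With a log10 p above -50, 17 of 35 (48.6%, 31.4 to 66.0) lay over several Dox peaks and 12 were covered in full. Without the 4 Ahnak2 peaks, which share 1 gene, these were 13 of 31 (41.9%, 24.5 to 60.9). Between -200 and -50, 16 of 57 (28.1%, 17 to 41.5) did so and 28 were covered in full. Below -200 it was 8 of 57 (14.0%, 6.26 to 25.8), with 36 covered in full. The median width in the 3 classes was 1259, 1200 and 1313 nt. By fold, 15 of the 34 peaks at 20 or more (44.1%, 27.2 to 62.1) lay over several Dox peaks, or 11 of 30 without Ahnak2 (36.7%, 19.9 to 56.1), against 26 of 115 under 20 (22.6%, 15.3 to 31.3). Pieces were thus most frequent at the weaker p but at the higher folds. The intervals by fold overlap, as do those of neighbouring p classes. Without Ahnak2, the interval of the weakest p class (24.5 to 60.9) also overlaps that of the class below -200 (6.26 to 25.8). In genes under 3000 nt, 10 of 23 peaks (43.5%, 23.2 to 65.5) lay over several Dox peaks and 3 were covered in full, although their median log10 p was -214. In longer genes the counts were 30 of 123 (24.4%, 17.1 to 33.0) and 71. These intervals cover counting error over peaks only, and the classes were made after the values were seen.

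**Figure D4:**
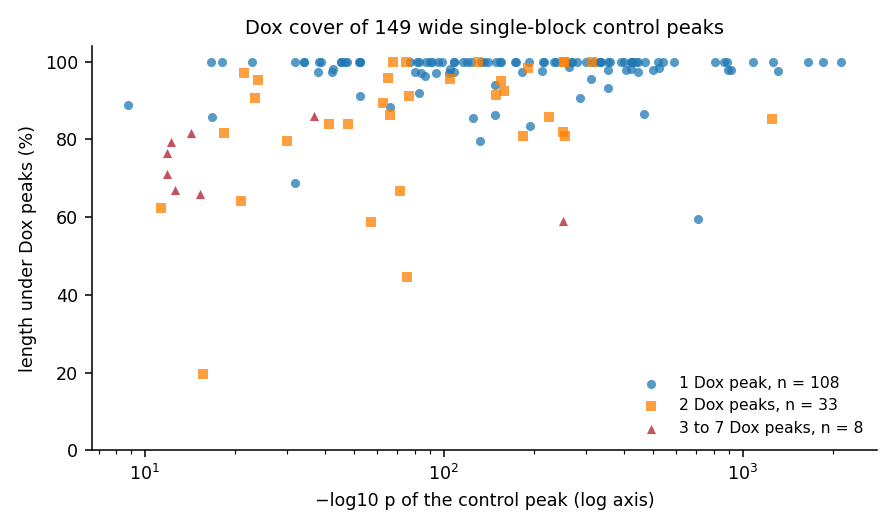
Share of each control peak's length under Dox peaks (%) against its -log10 p (log axis), 1 point for each of the 149 peaks, coloured by the number of Dox peaks over it. Points with 3 to 7 Dox peaks are all at a log10 p of -36.9 or weaker except Tlcd1 (-251), and the lowest cover is that of Tchh at 19.7%.

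Uncovered nt were unevenly placed. Of 14105 nt without a Dox peak, 6820 lay between covered stretches, 4778 at 5′ edges and 2507 at 3′ edges. Single peaks weigh on these sums. Tchh alone had 716 bare nt at its 5′ edge and 358 at its 3′ edge, and Exosc6 had 509 at its 5′ edge. A bare 5′ edge was present in 48 of 149 peaks (32.2%, 24.8 to 40.4) and a bare 3′ edge in 23 (15.4%, 10 to 22.3). The 1039 peaks of 500 to 999 nt that met a Dox peak had the same order, with 25.3% (22.7 to 28.1) bare at the 5′ edge and 17.9% (15.6 to 20.4) at the 3′ edge. Of the 149, 3 shared both bounds with a Dox peak, 48 shared exactly 1 bound and 98 neither. Shared bounds were not counted over other control peaks.

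**Figure D5:**
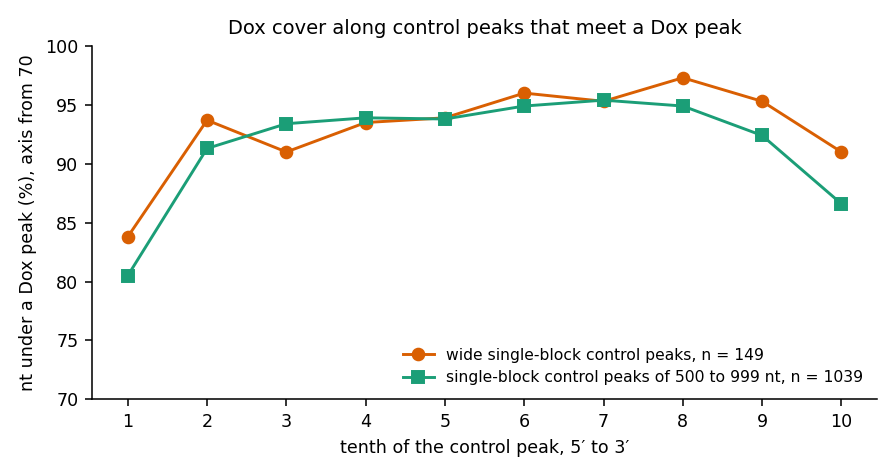
Share of nt under a Dox peak (%, axis from 70) in each 10% of the control peak, 5′ to 3′, for the 149 wide peaks and for the 1039 single-block peaks of 500 to 999 nt that met a Dox peak. In the wide peaks it rose from 83.8% in the first 10% to 97.3% in the eighth and was 91.0% in the last; the narrower class ran from 80.5% to 86.6%, with 95.4% in the seventh.

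Wide single-block peaks of the Dox table, found by the same rule, gave the reverse view. They numbered 246, or 0.891% of Dox peaks, with a median width of 1290 nt, a median fold of 6.51 and a widest peak of 3743 nt, in Ahdc1. All 246 met a control peak (98.5 to 100), and 89 met 1 of the 149. Several control peaks lay over 150 of them (61.0%, 54.6 to 67.1), and a gap between control-covered stretches was present in 147 (59.8%, 53.3 to 65.9). Control peaks covered 14 of the 246 in full (5.69%, 3.15 to 9.36). Both directions therefore showed pieces, and the interval of the share with a gap was higher for wide Dox peaks laid over control peaks (53.3 to 65.9) than for wide control peaks laid over Dox peaks (16.3 to 30.4). The Dox-side shares were not computed over all Dox peaks or over narrower ones, so they cannot be called particular to wide Dox peaks. The lists also differ in size, with 25815 control and 27612 Dox peaks, and in the unknown depth of their libraries.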

How the data were processed

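m6A sequencing gave IP and input libraries from control and Dox cells, 2 replicates each. Per the labels' protocols, purified mRNA was sonicated before a strand-keeping library kit was used. Per the submitters' processing notes, the build was mm10 and the tools included TopHat2 2.1.1 and FastQC 0.11.5. The deposited tables are named for exomePeak, and its version, settings and gene models are not given in the sources read. Each fold is the value headed as fold enrichment for that peak, taken here as IP over input, with both replicates pooled by the authors. The deposited p-value stands in a column headed score, and its log10 in another; they matched (within 0.05 plus 0.5% of the value) in the 24927 control and 27241 Dox peaks whose score is above 0, and the other 888 and 371 hold a 0. The log10 FDR, a second such score per the file headers, was below the smallest number stored in 37 of the wide peaks, so log10 p was used.

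Widths, overlaps and gaps were computed over exonic blocks on the same strand (Python 3.11.15, numpy 2.4.6, pandas 2.3.3; figures with matplotlib 3.10.9). The overlap code made 0 errors in 300 simulated peaks. Intervals are exact 95% Clopper-Pearson (scipy 1.17.1), cover counting error alone, as if peaks were independent. The tables hold Ensembl identifiers only, so each was named by the RefSeq gene interval (GRCm38.p6) on its strand holding most of its peak midpoints, at least 50%, which named 11444 of 13110 (87.3%). Where RefSeq tables held no strand, the strand with most peaks was taken, and a tie left the identifier unnamed. Exons and untranslated regions were not annotated here. Coordinates are 1-based mm10.

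The wide peaks, gene lists and comparisons were chosen with earlier results of these data known. Genes named are the 10 widest, of highest fold, over most Dox peaks and of lowest log10 p, those with several peaks or the same bounds, the list members, and the peaks nearest to the width limit, except that some are not reported here. Others (low cover, gene starts, ends or short genes, folds higher in Dox, opposite strands) were chosen after their values were seen.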

Additional observations from a re-analysis of the deposited data

How the results depend on the processing

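The number of wide single-block control peaks followed the width limit, with 327 at 800 nt, 32 at 1500 nt and 8 at 2000 nt. It stayed at 149 in the authors' shorter list and at a log10 FDR of -5 or less. The share with a Dox peak was 98.0% to 100% under every other setting tried, except that it was 89.9% when 1 Dox peak had to hold 50% of the control peak. The number over several Dox peaks was 12 of the 32 peaks at 1500 nt, a change that comes with fewer peaks. It was 25 of 126 without peaks sharing nt with another control peak, where the 16 removed were 7 without a gap and 9 with one. It was 34 with overlapping Dox peaks counted as 1, 37 without Ahnak2, 41 with at least 50 nt per Dox peak, 35 in the shorter Dox list and 30 at a Dox log10 FDR of -5 or less. The last 2 settings left the share covered in full at 51.0%, and the median cover was 98.1% at 1500 nt and 100% otherwise. The share centred near the 3′ end was 27.6% in a window of 2000 nt, 0% for peaks of at least 1500 nt and 0% in a window of 500 nt, which a centre of so wide a peak enters only where the peak runs past the end. The share near the 5′ end was 8.94% in a window of 1000 nt. The median relative position over all named peaks (0 at the 5′ end, 1 at the 3′ end) was 0.665, with 0.676 at 1500 nt and 0.673 without shared peaks. No paired analysis was possible because each table pools both replicates. The unknown depth limits what a missing stretch in Dox can show.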
